A study of Canis lupus with 23 samples.

Results

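Gene expression was compared between canine melanoma and canine soft tissue sarcoma. The members were chosen by their titles: 5 tumors titled Melanoma (Melanoma_0 to Melanoma_4) against 4 mesenchymal tumors, 2 of them titled STS (STS_0 and STS_1) and 2 titled Sarcoma (Sarcoma_0 and Sarcoma_1), which is 9 of the 23 tumors of the series. The study asked whether collecting and profiling the tumors of dogs and reporting on candidate drugs was feasible within a short time, without treating the dogs by the result. Biopsies came from pet dogs with naturally occurring, previously untreated cancer, and the melanoma cohort was open to oral melanoma. Each tumor gave 1 array from a separate dog, so replicates are different animals, and no cell line, transgene or treatment was involved. The labels give the diagnosis alone, with no breed, site, grade or subtype of sarcoma for a given array, so the 4 sarcomas are a mixed group for which only the title is known.

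Melanocytes are pigment cells that arise from the neural crest. They build melanosomes, organelles in which a fibril scaffold carries melanin made by tyrosinase and its relatives, and the transcription factors MITF, SOX10 and PAX3 are known to drive these genes. Schwann cells come from the same embryonic source and share many of the neural crest genes with melanocytes. Soft tissue sarcomas are tumors of connective tissue, and many express genes of fibroblasts and pericytes, among them collagens, proteoglycans and receptors for platelet-derived and fibroblast growth factors.

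Values are log2(signal + 16), where the signal is the array's linear intensity for a probeset, averaged over the probesets of a gene. Lists of values for the melanomas run from Melanoma_0 to Melanoma_4. A difference is melanoma minus sarcoma on this scale, given as a log2 fold change ± its standard error from limma, and it understates the change of dim genes. A gene was called where its Benjamini-Hochberg adjusted p was below 0.05 and the groups differed by 1 log2 unit or more. The arrays of both groups had like overall brightness, with a median signal of 87.2 to 132 among the melanomas and 97.8 to 131 among the sarcomas. The log2 ratio of 3′ to 5′ control probesets, a sign of RNA integrity, was 2.82 to 4.65 among the melanomas and 3.02 to 4.19 among the sarcomas, a difference of 0.355 (exact permutation test over 126 splits, two-sided p = 0.460). In bulk tumor RNA, fewer cells of a type cannot be told apart from less RNA per cell.

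One tumor stood apart in a way that touches the comparison. Sarcoma_0 carried neural crest genes at levels like those of the melanomas. Its macrophage, MHC, B and plasma cell, and joint mast cell and neutrophil genes were mostly above the other sarcomas. Results that rest on Sarcoma_0 are therefore given with and without it. Sarcoma_0 was singled out by its values in these same data. Calls made without it are therefore descriptions and not independent tests.

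Of 15115 genes tested, 21 were higher in melanoma (0.139% of genes) and 21 were lower (0.139%), and in all 42 the melanomas and sarcomas did not overlap. At an unadjusted p under 0.05 there were 1410 genes. The median log2 fold change over all genes was -0.05, with 6943 genes above 0 and 8172 below. Centring each array on its median gene value moved that median to 0.09 and the calls to 32 higher and 16 lower. All 5 melanomas lay above all 4 sarcomas for 248 genes (1.64%) and below them for 288 (1.91%), so that 536 genes (3.55%) did not overlap. Of the 42 called genes, 23 rest on 1 probeset, and in the other 19 every probeset pointed the same way.

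The counts depended on single tumors. The 21 higher calls became 47 without Sarcoma_0 and 8 without STS_0. The 21 lower calls became 3 without STS_0, 9 without Melanoma_1, 10 without Melanoma_0, 12 without Melanoma_4 and 12 without Sarcoma_1. Of the 41 called genes that have a name, 9 stayed called whichever tumor was left out: DCT, PMEL, SLC45A2, TYR, MLANA and ART3 on the melanoma side, and CD34, OLFML1 and RHOU on the sarcoma side. Another 7 (RAB38, IGF2BP2, PRKG2, ST6GALNAC3, CDON, PLPP3 and UGP2) lost their call only without STS_0, and the remaining 25 lost it without at least 1 other tumor. None of the 41 changed direction under any setting run. Settings that only left out tumors could not have reversed them, because their groups did not overlap.

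**Figure D1:**
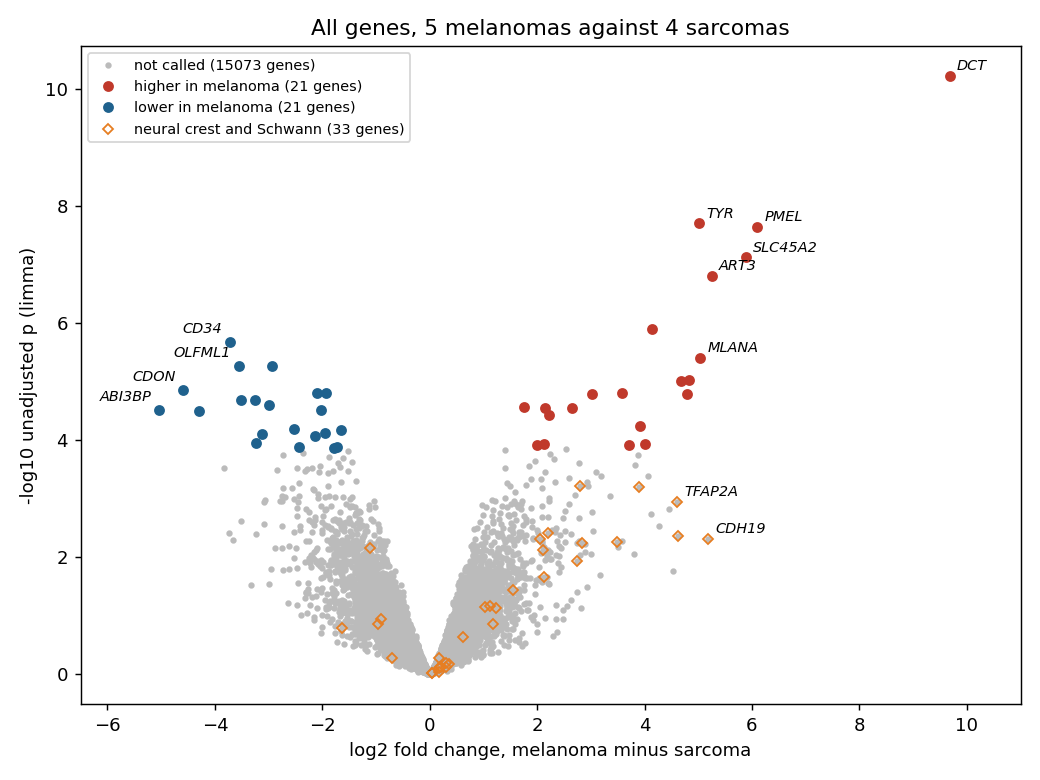
Each point is a gene, with its log2 fold change (melanoma minus sarcoma) across and the −log10 of its unadjusted limma p upward. Red points are the 21 genes called higher in melanoma, blue points the 21 called lower, and open diamonds the 33 neural crest and Schwann genes, of which none was called although 28 lie to the right of 0.

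Pigment genes were 7 of the 20 genes higher in melanoma that have a name. Of 31 melanosome and pigment genes listed, 29 were measured, 7 were higher in melanoma, none was lower and 22 were not called. Over all 15115 genes, 0.139% were called higher. The median log2 fold change of the 29 was 1.47, beside -0.05 over all genes. A fold change above 0 was found in 25 of the 29 and in 6943 of all 15115 genes. In 10 of them every melanoma lay above every sarcoma, where 1.64% of all genes did.

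DCT, dopachrome tautomerase, an enzyme late in the making of brown-black melanin, gave the largest difference on the array. It read 15.33, 14.07, 13.76, 14.14 and 14.77 in the melanomas and 4.23 in STS_0, 4.29 in STS_1, 6.16 in Sarcoma_0 and 4.25 in Sarcoma_1. All melanomas were bright, and 3 sarcomas sat at the floor of the scale while Sarcoma_0 stood slightly above it, with no overlap (log2 fold change 9.68 ± 0.45, adjusted p = 9.11e-07). On the linear scale the DCT signal was 13880 to 41140 among the melanomas and 2.81 to 55.6 among the sarcomas.

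PMEL, which forms the fibrils of the young melanosome, read 12.54, 11.97, 12.62, 13.33 and 14.35 in the melanomas and 5.78 in STS_0, 7.28 in STS_1, 7.13 in Sarcoma_0 and 7.28 in Sarcoma_1. The groups were more than 4 log2 units apart at their nearest point (log2 fold change 6.09 ± 0.47, adjusted p = 1.14e-04). TYR, tyrosinase, which carries out the first step of melanin synthesis, read 10.31, 9.79, 9.88, 9.62 and 9.59 in the melanomas and 4.88 in STS_0, 5.79 in STS_1, 4.39 in Sarcoma_0 and 4.19 in Sarcoma_1, again without overlap (log2 fold change 5.02 ± 0.39, adjusted p = 1.14e-04). Its 3 probesets ranged from 1.16 to 7.12 in log2 fold change, all above 0.

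MLANA, a melanosome protein widely used to stain melanocytic tumors, read 12.30, 11.76, 11.55, 10.58 and 11.60 in the melanomas and 6.22 in STS_0, 5.02 in STS_1, 6.06 in Sarcoma_0 and 8.82 in Sarcoma_1. Sarcoma_1 was the brightest sarcoma and still lay below every melanoma (log2 fold change 5.03 ± 0.63, adjusted p = 0.00742). SLC45A2, a transporter of the melanosome membrane, read 12.91, 10.70, 11.31, 10.75 and 11.49 in the melanomas and 5.90 in STS_0, 6.21 in STS_1, 4.26 in Sarcoma_0 and 5.84 in Sarcoma_1, with the groups well apart (log2 fold change 5.88 ± 0.51, adjusted p = 2.85e-04).

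RAB38, a small GTPase that brings enzymes to the melanosome, read 12.22, 9.75, 10.85, 10.57 and 9.42 in the melanomas and 5.84 in STS_0, 6.25 in STS_1, 7.22 in Sarcoma_0 and 4.24 in Sarcoma_1. No sarcoma reached the lowest melanoma, Melanoma_4 (log2 fold change 4.67 ± 0.64, adjusted p = 0.0122), and the call was lost without STS_0. SLC24A5, an ion exchanger of pigment organelles, read 10.59, 10.99, 10.88, 11.49 and 10.27 in the melanomas and 8.23 in STS_0, 9.08 in STS_1, 9.27 in Sarcoma_0 and 8.24 in Sarcoma_1, a narrower gap with appreciable signal in the sarcomas (log2 fold change 2.14 ± 0.33, adjusted p = 0.0179). For SLC24A5 the call was lost without Melanoma_1, Melanoma_2, STS_0 or Sarcoma_1 (adjusted p up to 0.0703).

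**Figure D2:**
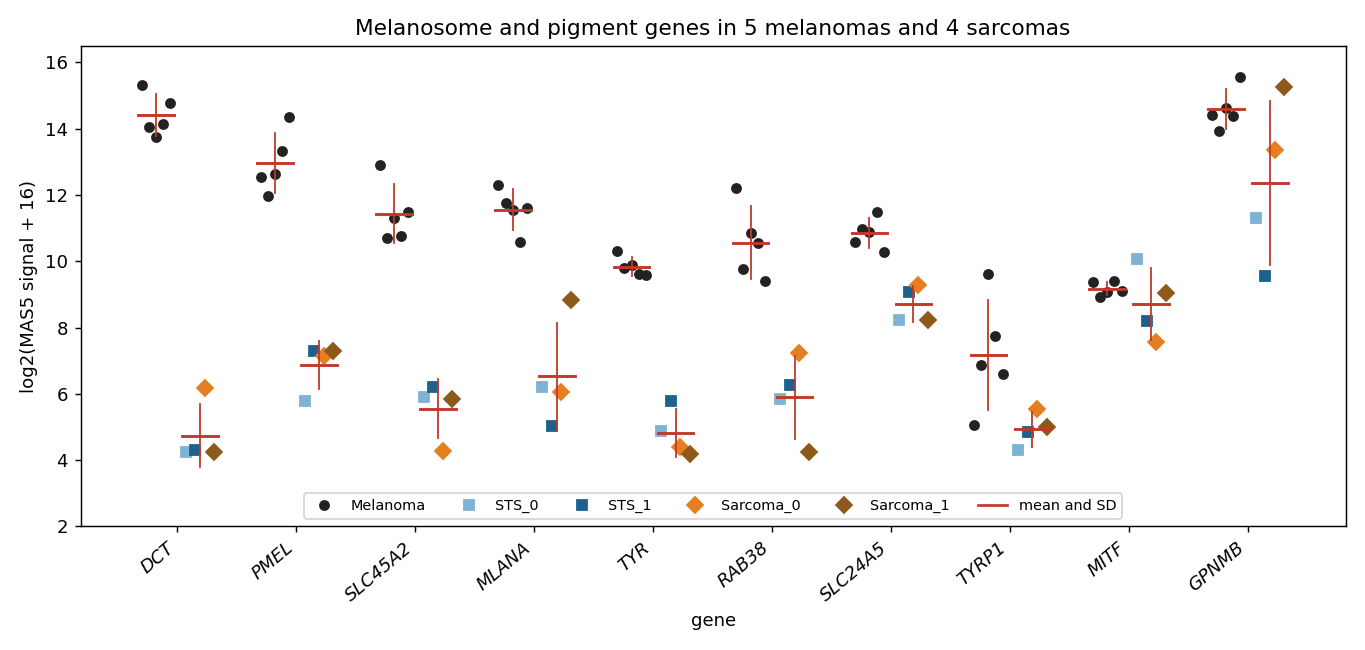
Each point is a tumor's log2(signal + 16) for 10 melanosome and pigment genes. Black circles are the 5 melanomas, squares the 2 tumors titled STS and diamonds the 2 titled Sarcoma, and red lines give the mean and SD of each group. The first 7 genes were called and do not overlap, while TYRP1, MITF and GPNMB overlap.

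The other pigment genes did not pass the test, and 3 of them show different patterns. TYRP1, the tyrosinase-related protein 1 of brown-black melanin, read 5.07, 6.86, 9.61, 7.74 and 6.58 in the melanomas and 4.30 in STS_0, 4.85 in STS_1, 5.55 in Sarcoma_0 and 4.99 in Sarcoma_1. It varied widely among the melanomas, with Melanoma_0 inside the sarcoma range (log2 fold change 2.25 ± 0.75, adjusted p = 0.325), and 1 of its 3 probesets showed no difference (-0.07) where the others gave 3.13 and 3.70. GPNMB, a melanosomal glycoprotein also made by macrophages, read 14.41, 13.94, 14.64, 14.38 and 15.57 in the melanomas and 11.29 in STS_0, 9.55 in STS_1, 13.36 in Sarcoma_0 and 15.26 in Sarcoma_1. Sarcoma_1 was as bright as the melanomas and both tumors titled STS were below them (log2 fold change 2.22 ± 0.89, adjusted p = 0.446).

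MITF, the master regulator of the melanocyte lineage, averaged over 6 probesets, read 9.36, 8.93, 9.08, 9.39 and 9.09 in the melanomas and 10.06 in STS_0, 8.20 in STS_1, 7.56 in Sarcoma_0 and 9.04 in Sarcoma_1. STS_0 was above every melanoma, and STS_1 and Sarcoma_0 were below them (log2 fold change 0.45 ± 0.43, adjusted p = 0.810). The MITF probesets went apart: 3 had log2 fold changes of 1.26, 1.86 and 1.91 and 3 had -0.35, -0.85 and -1.11, so the gene average mixes probesets of opposite sign. MC1R, the receptor of the pigment hormone, read 5.70 to 7.82 among the melanomas and 4.30 to 6.24 among the sarcomas (log2 fold change 1.52 ± 0.53, adjusted p = 0.353), and MYO5A, the motor that carries melanosomes, read 9.87 to 12.27 among the melanomas and 8.51 to 10.41 among the sarcomas (log2 fold change 1.47 ± 0.49, adjusted p = 0.325).

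OCA2, a melanosome channel gene, and GPR143, a receptor of the melanosome membrane, were separated between the groups without passing the test. OCA2 read 7.42 to 10.82 among the melanomas and 4.81 to 7.21 among the sarcomas (log2 fold change 2.35 ± 0.76, adjusted p = 0.304). GPR143 read 6.45 to 7.60 among the melanomas and 4.41 to 5.98 among the sarcomas (log2 fold change 1.46 ± 0.45, adjusted p = 0.270). AP3B1, a subunit of the adaptor that sorts melanosome cargo, was likewise separated at 10.63 to 11.69 among the melanomas and 9.28 to 10.33 among the sarcomas (log2 fold change 1.06 ± 0.30, adjusted p = 0.237). RAB27A, which tethers melanosomes to the motor, stood at 14.91 in Melanoma_4 and between 10.44 and 11.21 in the other melanomas, which overlapped the sarcomas at 7.35 to 11.31.

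The 14 tumors of the series outside the comparison served as a further reference. For DCT, PMEL, SLC45A2, MLANA, TYR and RAB38, 0 of the 14 reached the lowest melanoma, with the highest other tumor at 6.12, 9.49, 7.23, 6.70, 5.94 and 7.58. SLC24A5 was less set apart, with 1 of the 14, Lymphoma_2 at 10.34, above the lowest melanoma.

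Neural crest and Schwann genes had a shifted median, and none passed the test. Of 38 listed, 33 were measured, 0 were called in either direction, and 14 had an unadjusted p under 0.05. The median log2 fold change was 1.03, and 28 of the 33 were above 0. Over all 15115 genes, 1410 had an unadjusted p under 0.05 and 6943 were above 0. In 21 of the 33 the brightest sarcoma was Sarcoma_0 (63.6%), which was the brightest sarcoma for 28% of all genes. Sarcoma_0 was at or above the lowest melanoma in 29 of the 33, against 14 for STS_0, 18 for STS_1 and 14 for Sarcoma_1.

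CDH19, a cadherin of Schwann cell precursors, shows the pattern most plainly. It read 12.56, 13.52, 12.51, 12.06 and 8.74 in the melanomas and 4.48 in STS_0, 4.27 in STS_1, 12.49 in Sarcoma_0 and 5.53 in Sarcoma_1. Sarcoma_0 was above Melanoma_3 and Melanoma_4, and the other 3 sarcomas were near the floor (log2 fold change 5.18 ± 1.50, adjusted p = 0.243). TFAP2A, a transcription factor of the early neural crest, read 12.73, 10.78, 12.26, 13.15 and 9.92 in the melanomas and 6.79 in STS_0, 4.38 in STS_1, 10.95 in Sarcoma_0 and 6.53 in Sarcoma_1, with Sarcoma_0 inside the melanoma range (log2 fold change 4.60 ± 1.08, adjusted p = 0.140). Its relative TFAP2B read 11.52, 13.36, 12.56, 10.42 and 11.76 in the melanomas and 8.27 in STS_0, 9.26 in STS_1, 11.89 in Sarcoma_0 and 6.93 in Sarcoma_1, and Sarcoma_0 again sat among the melanomas (log2 fold change 2.84 ± 0.85, adjusted p = 0.255).

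SOX10, the transcription factor that maintains melanocyte and Schwann cell fate, read 7.22, 7.70, 6.94, 8.83 and 7.91 in the melanomas and 5.93 in STS_0, 4.84 in STS_1, 7.17 in Sarcoma_0 and 4.16 in Sarcoma_1. Sarcoma_0 was above Melanoma_2 and close to Melanoma_0 (log2 fold change 2.20 ± 0.62, adjusted p = 0.219). SOX5, a partner of SOX10, read 11.12, 10.74, 9.68, 9.47 and 7.33 in the melanomas and 4.21 in STS_0, 4.57 in STS_1, 9.52 in Sarcoma_0 and 6.46 in Sarcoma_1, with Sarcoma_0 again among the melanomas (log2 fold change 3.48 ± 1.03, adjusted p = 0.248). PAX3, which acts with SOX10 on MITF, read 8.04, 7.97, 8.34, 8.78 and 6.20 in the melanomas and 4.93 in STS_0, 4.61 in STS_1, 6.53 in Sarcoma_0 and 4.21 in Sarcoma_1. Sarcoma_0 passed Melanoma_4 and no other melanoma (log2 fold change 2.80 ± 0.61, adjusted p = 0.105).

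ERBB3, the neuregulin receptor of Schwann cells, read 9.30, 10.48, 8.87, 9.78 and 9.32 in the melanomas and 6.22 in STS_0, 7.07 in STS_1, 9.92 in Sarcoma_0 and 6.55 in Sarcoma_1. Sarcoma_0 exceeded 4 of the 5 melanomas (log2 fold change 2.11 ± 0.66, adjusted p = 0.279). EDNRB, the endothelin receptor of migrating melanoblasts, read 11.26, 10.27, 11.15, 12.39 and 9.0 in the melanomas and 8.63 in STS_0, 7.93 in STS_1, 11.22 in Sarcoma_0 and 6.94 in Sarcoma_1, also with Sarcoma_0 within the melanoma range (log2 fold change 2.13 ± 0.81, adjusted p = 0.418). NRN1, neuritin, a membrane-bound growth factor of neurons, read 11.28, 12.92, 13.91, 14.13 and 10.35 in the melanomas and 5.98 in STS_0, 10.15 in STS_1, 11.28 in Sarcoma_0 and 4.14 in Sarcoma_1. STS_1 and Sarcoma_0 were bright, STS_0 and Sarcoma_1 dim (log2 fold change 4.63 ± 1.32, adjusted p = 0.232).

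**Figure D3:**
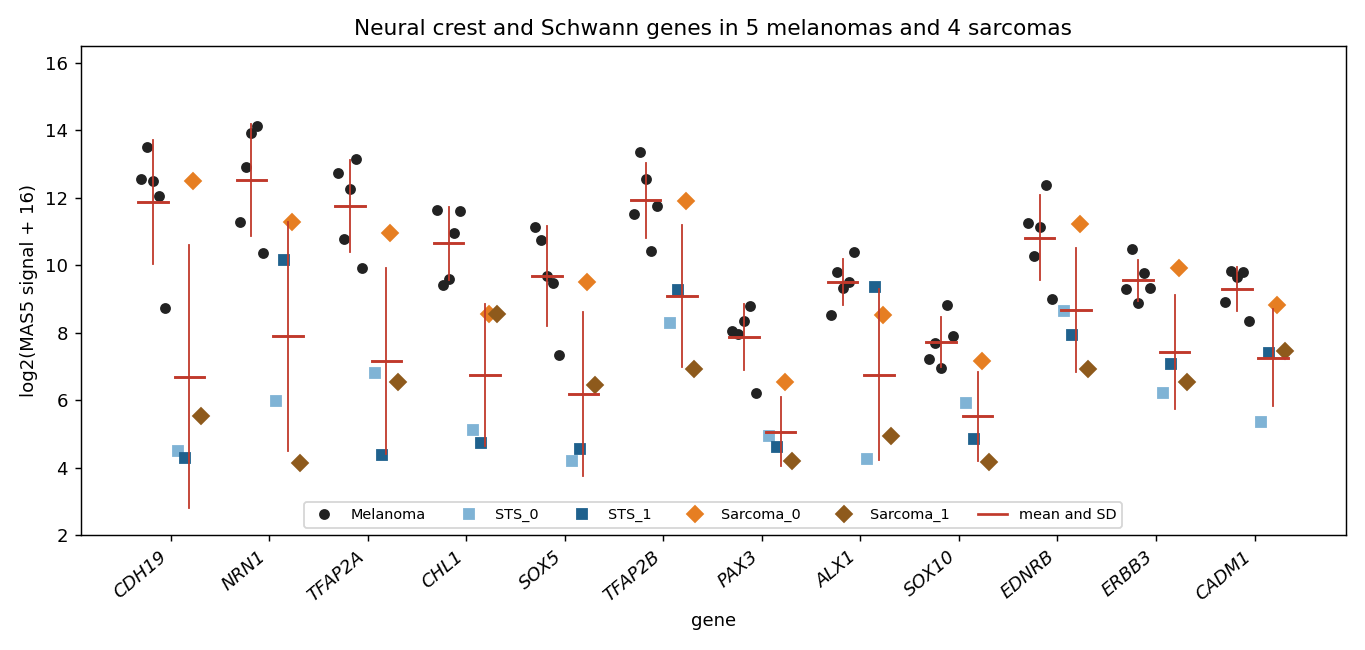
Each point is a tumor's log2(signal + 16) for 12 neural crest and Schwann genes, with black circles for the 5 melanomas and red lines for the mean and SD of each group. Sarcoma_0 (orange diamonds) is at or above the lowest melanoma in 10 of the 12 genes, STS_1 in 1 and the other 2 sarcomas in 0. The same count over all genes was not made.

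CHL1, a neural cell adhesion molecule, was the list's 1 member with every melanoma above every sarcoma, at 11.65, 9.41, 9.59, 10.95 and 11.62 in the melanomas and 5.12 in STS_0, 4.73 in STS_1, 8.56 in Sarcoma_0 and 8.55 in Sarcoma_1. Both tumors titled Sarcoma were brighter than both titled STS (log2 fold change 3.90 ± 0.85, adjusted p = 0.105). ALX1, a homeobox gene of cranial mesenchyme, was close to the melanomas in STS_1 and Sarcoma_0 (9.35 and 8.51, with the melanomas at 8.53 to 10.39) and at 4.24 and 4.94 in the other sarcomas. KIT, the stem cell factor receptor of melanoblasts and mast cells, overlapped at 6.58 to 9.10 among the melanomas and 5.39 to 7.66 among the sarcomas (log2 fold change 1.55 ± 0.66, adjusted p = 0.480), and SNAI2, an inducer of cell migration in the neural crest, also overlapped (log2 fold change 1.23 ± 0.62, adjusted p = 0.588).

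NGFR, the low-affinity nerve growth factor receptor, was bright in Sarcoma_0 at 8.92 and in Melanoma_4 at 8.74. The other melanomas stood at 4.23 to 4.72, and STS_1 at 6.26. PMP22, a myelin protein that fibroblasts also express, had every melanoma below every sarcoma, at 8.51 to 9.72 among the melanomas and 9.76 to 11.06 among the sarcomas (log2 fold change -1.12 ± 0.34, adjusted p = 0.270).

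Without Sarcoma_0, 7 of the 33 neural crest genes were higher in melanoma, where 0.311% of all genes were. They were CDH19 (log2 fold change 7.11 ± 0.87, adjusted p = 0.00468), TFAP2A (log2 fold change 5.86 ± 0.77, adjusted p = 0.00746), ERBB3 (log2 fold change 2.94 ± 0.41, adjusted p = 0.0111), TFAP2B (log2 fold change 3.77 ± 0.65, adjusted p = 0.0303), SOX5 (log2 fold change 4.59 ± 0.81, adjusted p = 0.0338), PAX3 (log2 fold change 3.29 ± 0.58, adjusted p = 0.0344) and CHL1 (log2 fold change 4.51 ± 0.85, adjusted p = 0.0474). Sarcoma_0 was singled out by its values in these same genes, so these 7 calls are a description and not an independent test. Without Melanoma_4, the dimmest melanoma for CDH19, TFAP2A, SOX5 and PAX3, 1 of the 33 was called, which was PAX3. When the lymphomas and the transitional cell carcinomas (TCC) of the series were added to the fit, so that 19 tumors set the spread, 6 of the 33 were higher (CDH19, CHL1, NRN1, PAX3, TFAP2A and CADM1), where 0.609% of all genes were. The 7 pigment genes were called with Sarcoma_0 in the fit and without it. Over all 29 pigment genes, Sarcoma_0 was at or above the lowest melanoma in 14, against 8 for STS_0, 12 for STS_1 and 16 for Sarcoma_1, and it was the brightest sarcoma in 10. For the lowest melanoma, no count over all genes stands beside these. In the 14 other tumors, 0 reached the lowest melanoma for CDH19, TFAP2A and CHL1.

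Other cell type markers also moved in Sarcoma_0. It was the brightest of the sarcomas in 18 of 23 macrophage and dendritic genes, 15 of 21 genes of MHC antigen presentation, 10 of 13 B and plasma cell genes and 8 of 12 mast cell and neutrophil genes. It was also the brightest in 11 of 19 cartilage and bone genes, and in 28% of all genes. In T cell genes it was the brightest in 6 of 21 and Sarcoma_1 in 14, and in interferon response genes it was the brightest in 12 of 25 and Sarcoma_1 in 10. Their part in the neural crest levels was not tested.

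The remaining genes higher in melanoma are not on the pigment list. ART3, a cell surface member of the ADP-ribosyltransferase family, read 13.12, 12.20, 11.34, 11.33 and 11.91 in the melanomas and 7.23 in STS_0, 6.24 in STS_1, 7.84 in Sarcoma_0 and 5.62 in Sarcoma_1. The gap between the groups exceeded 3 log2 units (log2 fold change 5.25 ± 0.49, adjusted p = 4.72e-04), and with DCT it was 1 of the 2 genes called under every one of the 22 settings run for it. None of the 14 other tumors reached the lowest melanoma for ART3, the highest being 7.62.

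IGF2BP2, an RNA-binding protein that stabilises growth-related messages, read 11.64, 10.16, 12.27, 12.33 and 12.11 in the melanomas and 6.25 in STS_0, 6.24 in STS_1, 9.16 in Sarcoma_0 and 5.80 in Sarcoma_1. Sarcoma_0 stood well above the other sarcomas (log2 fold change 4.84 ± 0.66, adjusted p = 0.0122), and the call was lost without STS_0. PRKG2, a membrane-bound cGMP-dependent kinase, read 12.58, 9.99, 9.97, 11.66 and 10.17 in the melanomas and 6.12 in STS_0, 6.36 in STS_1, 4.24 in Sarcoma_0 and 7.58 in Sarcoma_1, with Sarcoma_0 at the floor (log2 fold change 4.80 ± 0.69, adjusted p = 0.0139), and the call was lost without STS_0. DOK5, an adaptor that docks on receptor tyrosine kinases, read 10.71, 9.94, 9.82, 9.95 and 11.04 in the melanomas and 5.89 in STS_0, 7.31 in STS_1, 8.06 in Sarcoma_0 and 4.27 in Sarcoma_1 (log2 fold change 3.91 ± 0.65, adjusted p = 0.0295), and the call was kept without STS_1, Sarcoma_0 or Sarcoma_1 and lost without each of the other 6 tumors.

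GM2A, the lysosomal cofactor that presents the ganglioside GM2 for breakdown, read 13.0, 10.71, 9.97, 11.82 and 8.90 in the melanomas and 6.81 in STS_0, 7.57 in STS_1, 7.29 in Sarcoma_0 and 7.02 in Sarcoma_1, with the sarcomas tightly grouped and the melanomas spread (log2 fold change 3.70 ± 0.66, adjusted p = 0.0474). ST6GALNAC3, which adds sialic acid to glycolipids, read 10.19, 9.03, 8.41, 9.55 and 10.13 in the melanomas and 5.87 in STS_0, 6.22 in STS_1, 6.90 in Sarcoma_0 and 4.56 in Sarcoma_1 (log2 fold change 3.57 ± 0.52, adjusted p = 0.0139). GALNT3, which starts mucin-type O-glycan chains, read 12.91, 10.97, 9.60, 10.40 and 9.04 in the melanomas and 5.28 in STS_0, 6.59 in STS_1, 7.84 in Sarcoma_0 and 6.61 in Sarcoma_1 (log2 fold change 4.0 ± 0.71, adjusted p = 0.0474). For GM2A and ST6GALNAC3, 0 of the 14 other tumors reached the lowest melanoma, although the highest came close for GM2A at 8.89, whereas 7 did for GALNT3, with TCC_0 at 11.81. For GM2A the call was kept without Melanoma_0 or Melanoma_4 and lost without each of the other 7 tumors. For ST6GALNAC3 the call was lost without STS_0, and for GALNT3 the call was kept without Melanoma_0, Melanoma_4 or Sarcoma_0 and lost without each of the other 6 tumors.

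VAMP5, a vesicle fusion protein, read 11.41, 10.36, 11.37, 10.10 and 11.56 in the melanomas and 7.26 in STS_0, 7.81 in STS_1, 9.15 in Sarcoma_0 and 7.54 in Sarcoma_1 (log2 fold change 3.02 ± 0.44, adjusted p = 0.0139). Sarcoma_0 was the brightest sarcoma for VAMP5, still below every melanoma, and the call was lost without STS_0 or Sarcoma_1. MFGE8, a secreted protein that tags dying cells for uptake, read 9.73 to 11.24 among the melanomas and 7.68 to 8.72 among the sarcomas (log2 fold change 2.21 ± 0.35, adjusted p = 0.0202), and the call was kept without Melanoma_1, Melanoma_4 or Sarcoma_0 and lost without each of the other 6 tumors.

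A further 3 genes had smaller differences. They, MFGE8 and, among the genes lower in melanoma, OR8A1, OR4P4, FAM20C, UGP2 and TPST1 were named after their values were seen. SLC25A13, the mitochondrial aspartate and glutamate carrier, read 8.67 to 10.19 among the melanomas and 7.23 to 7.73 among the sarcomas (log2 fold change 2.0 ± 0.36, adjusted p = 0.0474). BTBD3, which shapes the dendrites of neurons, read 11.20 to 12.12 among the melanomas and 9.76 to 10.46 among the sarcomas (log2 fold change 1.75 ± 0.27, adjusted p = 0.0179), and TMCC2 read 5.97 to 7.18 among the melanomas and 4.26 to 4.57 among the sarcomas (log2 fold change 2.13 ± 0.38, adjusted p = 0.0474). All 3 were separated by less than 2 log2 units at the nearest point, and the call was lost whichever of the 9 tumors was left out for TMCC2. For SLC25A13 the call was kept without Melanoma_3 and lost without each of the other 8 tumors, and for BTBD3 the call was kept without Melanoma_0, Melanoma_3, Melanoma_4 or Sarcoma_0 and lost without each of the other 5 tumors. The highest tumors for BTBD3 were outside the comparison, with a mean of 13.14 in the TCCs. Of the 21 genes called higher, 1 has only a locus number for a symbol.

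Fibroblast genes were 3 of the 21 genes lower in melanoma. Of 55 fibroblast and mesenchymal genes listed, 49 were measured, 3 were lower in melanoma (CD34, EBF1 and PDGFRA), none was higher and 46 were not called. Over all 15115 genes, 0.139% were called lower. The median log2 fold change of the 49 was -0.94, with 36 below 0, as were 8172 of all 15115 genes. In 7 of them every melanoma lay below every sarcoma, where 1.91% of all genes did. Without STS_0, 1 of the 49 was called lower, and 3 of all 15115 genes were (0.0198%).

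CD34, a surface sialomucin of stromal fibroblasts, vessels and blood progenitors, read 7.46, 6.85, 7.65, 7.85 and 7.29 in the melanomas and 12.15 in STS_0, 11.41 in STS_1, 9.67 in Sarcoma_0 and 11.35 in Sarcoma_1. The melanomas lay within 1 log2 unit of each other and Sarcoma_0 was the dimmest sarcoma (log2 fold change -3.73 ± 0.44, adjusted p = 0.00465). EBF1, a transcription factor of B cells and of fat and stromal precursors, read 6.83, 6.81, 7.16, 7.57 and 6.87 in the melanomas and 11.35 in STS_0, 11.12 in STS_1, 8.74 in Sarcoma_0 and 10.04 in Sarcoma_1 (log2 fold change -3.26 ± 0.48, adjusted p = 0.0159), and the call was lost without Melanoma_1 or STS_0. The endothelial genes PECAM1 and CDH5 overlapped between the groups (log2 fold change -0.26 ± 0.38, adjusted p = 0.890 for PECAM1 and log2 fold change -0.18 ± 0.45, adjusted p = 0.947 for CDH5). None of the 21 endothelial genes measured was called, and their fold changes ran from -1.01 to 1.76. The part of vessels in the CD34 levels was not tested.

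PDGFRA, the platelet-derived growth factor receptor alpha of fibroblasts, read 7.32, 5.91, 8.99, 8.91 and 8.70 in the melanomas and 10.58 in STS_0, 11.30 in STS_1, 11.44 in Sarcoma_0 and 11.51 in Sarcoma_1. The sarcomas were tightly grouped and the melanomas spread from Melanoma_1 at the bottom to Melanoma_2 at the top (log2 fold change -3.24 ± 0.58, adjusted p = 0.0474). For PDGFRA the call was kept without Melanoma_1 and lost without each of the other 8 tumors, with an adjusted p of up to 0.122. PDGFRA was also bright in the TCCs, with a mean of 12.20.

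ABI3BP, an extracellular matrix protein, gave the largest difference in this direction, at 6.54, 6.21, 6.14, 9.50 and 6.34 in the melanomas and 12.65 in STS_0, 9.85 in STS_1, 12.20 in Sarcoma_0 and 13.25 in Sarcoma_1. Melanoma_3 and STS_1 nearly met while the other tumors were far apart (log2 fold change -5.04 ± 0.78, adjusted p = 0.0179), and the call was kept without Melanoma_3, STS_1 or Sarcoma_0 and lost without each of the other 6 tumors. OLFML1, a secreted olfactomedin-family protein, read 6.64, 6.57, 7.12, 8.09 and 5.93 in the melanomas and 11.20 in STS_0, 9.61 in STS_1, 10.80 in Sarcoma_0 and 10.10 in Sarcoma_1 (log2 fold change -3.56 ± 0.46, adjusted p = 0.00822). MATN2, a matrilin that bridges matrix filaments, read 7.87, 9.37, 6.22, 8.52 and 8.27 in the melanomas and 11.37 in STS_0, 11.01 in STS_1, 11.79 in Sarcoma_0 and 12.07 in Sarcoma_1, and every sarcoma was above 11 (log2 fold change -3.51 ± 0.52, adjusted p = 0.0159), while the call was lost without STS_0 or Sarcoma_1. MATN2 was the 1 member called among 54 matrix glycoproteins and proteoglycans, whose median was -0.43.

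DPP4, a surface peptidase of some fibroblasts and T cells, read 6.51, 6.17, 7.61, 8.10 and 7.40 in the melanomas and 11.28 in STS_0, 11.24 in STS_1, 9.67 in Sarcoma_0 and 13.62 in Sarcoma_1, highest in Sarcoma_1 (log2 fold change -4.29 ± 0.67, adjusted p = 0.0179), and the call was lost without Melanoma_0, Melanoma_1, STS_0 or STS_1. HTRA1, a secreted protease that cleaves matrix proteins, read 8.60 to 10.66 among the melanomas and 11.48 to 12.70 among the sarcomas (log2 fold change -2.53 ± 0.42, adjusted p = 0.0321), and the call was kept without Melanoma_2, Melanoma_3, STS_1 or Sarcoma_0 and lost without each of the other 5 tumors. FAM20C, the Golgi kinase of secreted proteins, read 6.29 to 7.34 among the melanomas and 8.64 to 9.30 among the sarcomas (log2 fold change -1.95 ± 0.33, adjusted p = 0.0351), and the call was kept without Melanoma_4 or Sarcoma_0 and lost without each of the other 7 tumors. TPST1, which adds sulfate to tyrosines of secreted proteins, read 8.17 to 9.22 among the melanomas and 9.75 to 10.82 among the sarcomas (log2 fold change -1.78 ± 0.32, adjusted p = 0.0496), and the call was kept without Melanoma_4 or Sarcoma_0 and lost without each of the other 7 tumors.

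**Figure D4:**
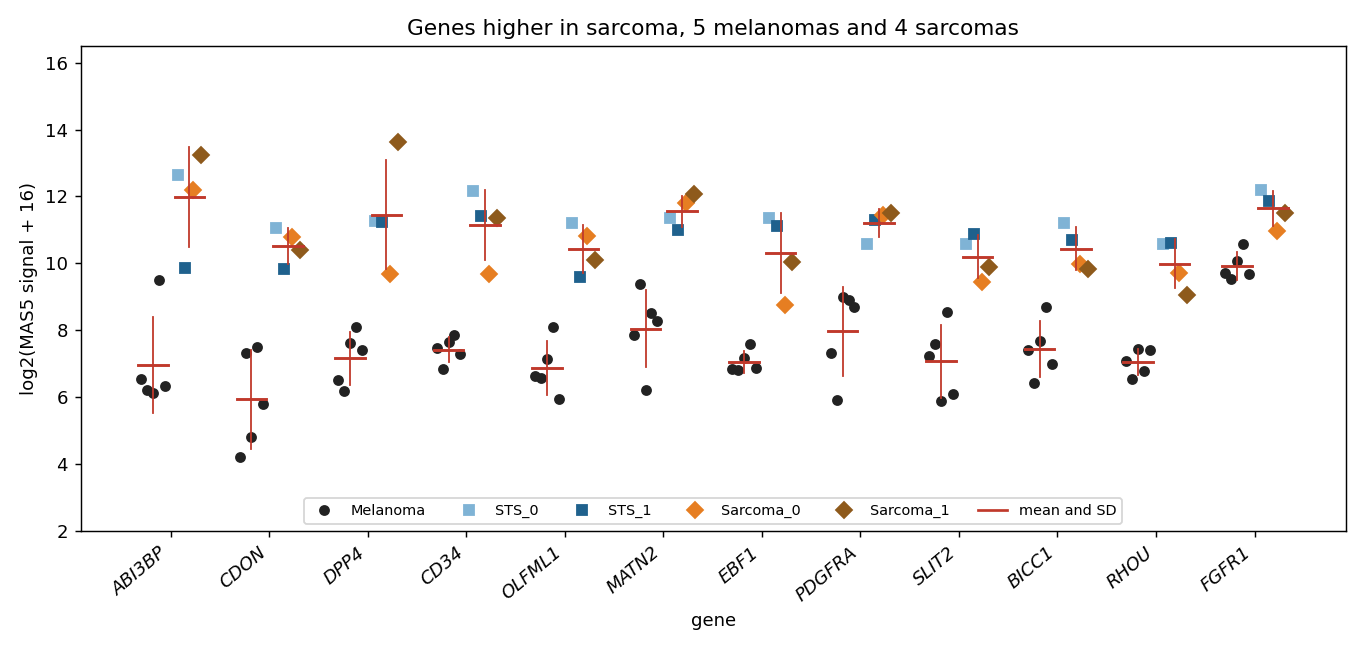
Each point is a tumor's log2(signal + 16) for 12 genes called lower in melanoma, with black circles for the 5 melanomas, squares for the 2 tumors titled STS, diamonds for the 2 titled Sarcoma and red lines for the mean and SD of each group. No gene overlaps, and the narrowest gap is that of ABI3BP, between Melanoma_3 at 9.50 and STS_1 at 9.85.

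CDON, a cell surface co-receptor for hedgehog ligands, read 4.21, 7.33, 4.81, 7.50 and 5.79 in the melanomas and 11.05 in STS_0, 9.82 in STS_1, 10.79 in Sarcoma_0 and 10.41 in Sarcoma_1. The melanomas spread over 3 log2 units and all sarcomas lay above them (log2 fold change -4.59 ± 0.65, adjusted p = 0.0139), and the call was lost without STS_0. SLIT2, a secreted guidance cue for ROBO receptors, read 7.22, 7.58, 5.89, 8.56 and 6.11 in the melanomas and 10.58 in STS_0, 10.86 in STS_1, 9.45 in Sarcoma_0 and 9.89 in Sarcoma_1 (log2 fold change -3.13 ± 0.53, adjusted p = 0.0362), and the call was kept without Melanoma_3 or Sarcoma_0 and lost without each of the other 7 tumors. ALDH1A2, which makes retinoic acid, read 4.54 to 5.96 among the melanomas and 7.13 to 8.42 among the sarcomas (log2 fold change -2.43 ± 0.44, adjusted p = 0.0484), and the call was lost whichever of the 9 tumors was left out.

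RHOU read 7.07, 6.55, 7.45, 6.77 and 7.40 in the melanomas and 10.57 in STS_0, 10.60 in STS_1, 9.71 in Sarcoma_0 and 9.07 in Sarcoma_1 (log2 fold change -2.94 ± 0.38, adjusted p = 0.00822). BICC1, an RNA-binding regulator, read 6.43 to 8.68 among the melanomas and 9.84 to 11.22 among the sarcomas (log2 fold change -3.0 ± 0.45, adjusted p = 0.0179), and the call was lost without STS_0 or STS_1. PID1, an adaptor in insulin and lipoprotein receptor signaling, read 7.86 to 9.64 among the melanomas and 10.23 to 10.93 among the sarcomas (log2 fold change -2.14 ± 0.37, adjusted p = 0.0378), and the call was kept without Melanoma_2 or Sarcoma_0 and lost without each of the other 7 tumors. Sarcoma_0 was the dimmest sarcoma for PID1, at 10.23, and Sarcoma_1 for RHOU, at 9.07.

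FGFR1, a fibroblast growth factor receptor, read 9.72, 9.52, 10.08, 10.58 and 9.68 in the melanomas and 12.20 in STS_0, 11.87 in STS_1, 10.97 in Sarcoma_0 and 11.51 in Sarcoma_1. Melanoma_3 and Sarcoma_0 lay closest to each other (log2 fold change -1.72 ± 0.31, adjusted p = 0.0484), and the call was kept without Melanoma_3 or Sarcoma_0 and lost without each of the other 7 tumors. PLPP3, a lipid phosphatase of the cell surface, read 7.72 to 9.18 among the melanomas and 10.38 to 10.76 among the sarcomas (log2 fold change -2.09 ± 0.30, adjusted p = 0.0139), and the call was lost without STS_0. UGP2, which makes the sugar donor UDP-glucose, read 9.37 to 10.62 among the melanomas and 11.55 to 11.90 among the sarcomas (log2 fold change -1.94 ± 0.28, adjusted p = 0.0139), with its 4 probesets between -2.78 and -1.44, and the call was lost without STS_0.

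Both OR8A1 and OR4P4, annotated as olfactory receptors, were called lower at low intensity. On the linear scale OR8A1 was 1.59 to 7.95 among the melanomas and 40.4 to 76.1 among the sarcomas, and OR4P4 was 1.13 to 2.82 against 27.5 to 49.1 (log2 fold change -2.02 ± 0.31, adjusted p = 0.0179 for OR8A1 and log2 fold change -1.66 ± 0.28, adjusted p = 0.0326 for OR4P4). Olfactory receptors form a large family of like sequences, so probes may read more than the named gene. For OR8A1 the call was kept without Melanoma_3, STS_1, Sarcoma_0 or Sarcoma_1 and lost without each of the other 5 tumors, and for OR4P4 the call was kept without Sarcoma_0 or Sarcoma_1 and lost without each of the other 7 tumors.

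For CDON, OLFML1, MATN2, BICC1, HTRA1, PID1 and FGFR1, 0 of the 14 tumors outside the comparison reached the lowest sarcoma. For PDGFRA, SLIT2, EBF1 and PLPP3, 4 of them did, and for DPP4, 6 did.

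No collagen was called, and MATN2 was the 1 member called among the matrix glycoproteins and proteoglycans. Of 35 collagens measured, 0 were called, 26 had a fold change below 0 and the median was -0.38. Over all 15115 genes, 8172 had a fold change below 0. COL6A3, a chain of the collagen around cells, came nearest, at 9.59, 8.63, 10.36, 11.46 and 9.60 in the melanomas and 12.51 in STS_0, 13.19 in STS_1, 11.90 in Sarcoma_0 and 12.05 in Sarcoma_1. Every melanoma lay below every sarcoma (log2 fold change -2.48 ± 0.49, adjusted p = 0.0709), and with 19 tumors in the fit it was lower (log2 fold change -2.48 ± 0.56, adjusted p = 0.0343). COL3A1 and COL1A2, chains of fibrillar collagen, overlapped, with Melanoma_3 at 11.41 and 13.68, inside the sarcoma ranges. DCN, decorin, a proteoglycan of collagen fibrils, read 10.39 to 14.06 among the melanomas and 14.36 to 15.01 among the sarcomas (log2 fold change -2.57 ± 0.56, adjusted p = 0.109), and the chemokine CXCL12 of stromal cells read 5.59 to 6.86 among the melanomas and 7.02 to 11.76 among the sarcomas (log2 fold change -3.83 ± 0.76, adjusted p = 0.0709).

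The fibroblast activation protein FAP (log2 fold change -3.09 ± 0.82, adjusted p = 0.198), the limb mesenchyme factor PRRX1 (log2 fold change -2.75 ± 0.65, adjusted p = 0.139), the matrix protein POSTN (log2 fold change -2.25 ± 0.56, adjusted p = 0.164) and the microfibril protein FBN1 (log2 fold change -2.01 ± 0.56, adjusted p = 0.219) did not pass the test. In each of these 4 a melanoma overlapped the sarcomas. Melanoma_3 was the brightest melanoma in 37 of 54 matrix glycoproteins and proteoglycans, 19 of 35 collagens and 25 of 49 fibroblast genes. It also led in 12 of 21 HOX genes and 21 of 52 WNT genes. Its median gene value was 7.32, against 6.82 to 7.01 in the other melanomas, and its share over all genes was not counted. Without Melanoma_3, 21 genes in all were called lower, of which 15 were among the 21 called with it.

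Receptor tyrosine kinases and their ligands included 2 of the genes called. Of 58 measured, 2 were lower (PDGFRA and FGFR1) and none was higher, where 0.139% of all genes were lower. Of the 58, 41 had a fold change below 0, as did 8172 of all 15115 genes, and the median was -0.56. MET, the hepatocyte growth factor receptor, read 10.68, 8.66, 10.34, 11.02 and 10.76 in the melanomas and 5.77 in STS_0, 7.04 in STS_1, 8.99 in Sarcoma_0 and 7.68 in Sarcoma_1. Sarcoma_0 passed Melanoma_1 and no other melanoma (log2 fold change 2.92 ± 0.62, adjusted p = 0.0957). Without Sarcoma_0, MET was higher (log2 fold change 3.46 ± 0.57, adjusted p = 0.0262), as it was with 19 tumors in the fit (log2 fold change 2.92 ± 0.61, adjusted p = 0.0195).

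EPHA3, an ephrin receptor, was bright in STS_0 and Sarcoma_1 at 11.59 and 10.60. It stood at 7.63 and 6.13 in the other sarcomas and at 4.91 to 5.89 in the melanomas, all below the sarcomas (log2 fold change -3.52 ± 0.92, adjusted p = 0.187). Without Sarcoma_0, EPHA3 was lower in melanoma (log2 fold change -4.47 ± 0.75, adjusted p = 0.0269). EGFR, the epidermal growth factor receptor, read 5.96 to 8.38 among the melanomas and 7.98 to 10.23 among the sarcomas (log2 fold change -2.14 ± 0.56, adjusted p = 0.187), with Melanoma_3 above STS_0.

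The growth factors IGF2 and PDGFB were each high in 1 sarcoma. IGF2 read 12.54 in STS_1 and at most 6.30 in the other 8 tumors, and PDGFB read 11.91 in STS_1 and at most 7.54 elsewhere. STS_1 was also the brightest for PDGFRB, the pericyte receptor of PDGFB, at 10.18. IGF1 was brightest in STS_0, at 11.23, and IGF1R overlapped at 6.90 to 10.37 among the melanomas and 6.15 to 9.13 among the sarcomas.

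The transforming growth factor beta receptors TGFBR3 and TGFBR2 did not pass the test with all 9 tumors, although the groups did not overlap. TGFBR3 read 5.79 to 6.78 among the melanomas and 7.84 to 10.33 among the sarcomas (log2 fold change -2.74 ± 0.51, adjusted p = 0.055), and without Sarcoma_0 it was lower in melanoma (log2 fold change -3.11 ± 0.51, adjusted p = 0.0254). TGFBR2 read 8.63 to 10.03 among the melanomas and 10.67 to 11.81 among the sarcomas (log2 fold change -1.67 ± 0.33, adjusted p = 0.0709). BMPR1B, a receptor for bone morphogenetic proteins, lay the other way at 7.46 to 9.83 among the melanomas and 4.40 to 7.30 among the sarcomas (log2 fold change 3.18 ± 0.66, adjusted p = 0.0838). With all 9 tumors none of the 39 genes of the TGF beta and BMP list was called, and their median was -0.17.

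No growth gene passed the test. None of 33 proliferation genes was called, 29 had a fold change above 0 and the median was 0.45. Over all 15115 genes, 6943 had a fold change above 0. CDK2, a kinase of the start of DNA replication, came close to a call at 8.13, 9.25, 9.44, 9.01 and 10.52 in the melanomas and 6.65 in STS_0, 7.50 in STS_1, 7.11 in Sarcoma_0 and 6.55 in Sarcoma_1, without overlap (log2 fold change 2.32 ± 0.44, adjusted p = 0.0615). TOP2A, the topoisomerase of dividing cells, overlapped at 10.53 to 12.88 among the melanomas and 10.19 to 12.20 among the sarcomas (log2 fold change 0.78 ± 0.55, adjusted p = 0.720). FOS, an early response transcription factor, was separated at 9.38 to 10.46 among the melanomas and 7.03 to 8.44 among the sarcomas (log2 fold change 1.85 ± 0.37, adjusted p = 0.0709). HK2, hexokinase 2 of glycolysis, and PDK1, which holds pyruvate back from mitochondria, were separated in opposite directions (log2 fold change 2.58 ± 0.62, adjusted p = 0.146 and log2 fold change -1.13 ± 0.28, adjusted p = 0.153).

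Drug-related genes were described by a list of 26, of which 24 were measured. The list was put together here, mostly from genes behind the study's drug predictions for these tumors, so it is not independent evidence. One member, PDGFRA, was lower in melanoma, and 23 were not called, with a median of 0.13. HDAC1 and HDAC2, histone deacetylases, were the 2 members with every melanoma above every sarcoma (log2 fold change 1.01 ± 0.28, adjusted p = 0.217 and log2 fold change 0.80 ± 0.31, adjusted p = 0.419). Over all genes, 1.64% were separated in this way.

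PTGS2, the inducible cyclooxygenase, read 7.06, 7.51, 8.26, 6.26 and 13.56 in the melanomas and 4.88 in STS_0, 9.0 in STS_1, 6.14 in Sarcoma_0 and 8.56 in Sarcoma_1. Melanoma_4 stood more than 5 log2 units above every other melanoma, and the groups overlapped (log2 fold change 1.38 ± 1.33, adjusted p = 0.810). ESR1, an estrogen receptor, was at 4.14 to 4.95 in the melanomas, and reached 9.88 in Sarcoma_1 and 7.29 in STS_1 (log2 fold change -2.46 ± 0.87, adjusted p = 0.361). PPAT, an enzyme of purine synthesis, overlapped (log2 fold change 0.82 ± 0.36, adjusted p = 0.515).

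Markers of the other cell types in the biopsies were not called in any of the immune, endothelial, muscle, fat, cartilage or epithelial lists. Their medians ran from -0.52 in skeletal muscle to 0.36 in epithelium. Vimentin (VIM), a filament of mesenchymal cells, was at 15.04 to 16.14 in all 9 tumors. MYOD1 and MYOG, the regulators of skeletal muscle, were at 4.34 to 4.56 and 4.25 to 7.01 in the sarcomas, so none carried both at high levels. Over the 29 skeletal muscle genes measured, STS_0 was the brightest sarcoma in 18, where it was for 20.8% of all genes. Their mean level was 6.50 in STS_0 and 5.42 to 5.85 in the other sarcomas. The mean level of 23 macrophage and dendritic genes ran from 8.25 to 9.73 among the melanomas and from 7.84 to 10.21 in the sarcomas, and that of 21 T cell genes from 5.67 to 7.49 and from 5.46 to 8.00. Both tumors titled STS were below both titled Sarcoma in these 2 lists.

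Squamous epithelial genes were bright in Melanoma_0. IVL, involucrin of the cornified cell envelope, read 14.67, 10.41, 4.99, 4.72 and 9.40 in the melanomas and 4.26 in STS_0, 4.44 in STS_1, 4.36 in Sarcoma_0 and 4.19 in Sarcoma_1, and KRT13, a keratin of oral epithelium, was 11.77 in Melanoma_0. Melanoma_0 was the brightest melanoma in 19 of 31 epithelial genes, and their mean was 8.26 there and 5.73 to 6.39 in the other melanomas. S100A8 and S100A9, alarmins of squamous cells and neutrophils, stood at 15.07 and 15.13 in Melanoma_0. SFN, stratifin of epithelial cells, was separated at 6.31 to 9.64 among the melanomas and 4.23 to 5.88 among the sarcomas (log2 fold change 2.95 ± 0.64, adjusted p = 0.105), and KRT8, a keratin of simple epithelium, overlapped (log2 fold change -1.68 ± 0.57, adjusted p = 0.337). The part of epithelium in the calls was not tested. Without Melanoma_0 22 genes were higher in melanoma and 10 lower.

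NEB, nebulin of the muscle thin filament, had 8 probesets, all with a fold change above 0, and read 11.16, 11.16, 9.90, 10.38 and 11.36 in the melanomas and 7.06 in STS_0, 5.65 in STS_1, 9.77 in Sarcoma_0 and 5.37 in Sarcoma_1. Sarcoma_0 was just below the lowest melanoma, and the other sarcomas were far below (log2 fold change 3.83 ± 0.75, adjusted p = 0.0693). It was higher in melanoma without Sarcoma_0 (log2 fold change 4.77 ± 0.47, adjusted p = 0.00113) and with 19 tumors in the fit (log2 fold change 3.83 ± 0.65, adjusted p = 0.00429), and 2 of the 14 other tumors reached the lowest melanoma. The other 28 measured skeletal muscle genes were not called. A fold change below 0 was found in 22 of the 29 and in 8172 of all 15115 genes.

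With all 9 tumors, the other lists held no called gene apart from IGF2BP2, the 1 of 13 IGF binding proteins and relatives that was called. Their medians were -0.27 over 40 matrix enzymes, -0.30 over 52 WNT genes, -0.11 over 24 cell cycle and p53 regulators, 0.04 over 40 lysosome and autophagy genes, 0.17 over 25 interferon response genes, 0.17 over 21 genes of MHC antigen presentation, 0.17 over 23 genes of MAPK feedback, 0.17 over 39 adhesion genes and integrins, 0.18 over 21 HOX genes, 0.10 over 31 genes of glycolysis and hypoxia and 0.13 over 35 genes of oxidative phosphorylation. Without Sarcoma_0, CD44, a hyaluronan receptor on the adhesion list, was higher in melanoma (log2 fold change 1.61 ± 0.29, adjusted p = 0.0371).

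**Figure D5:**
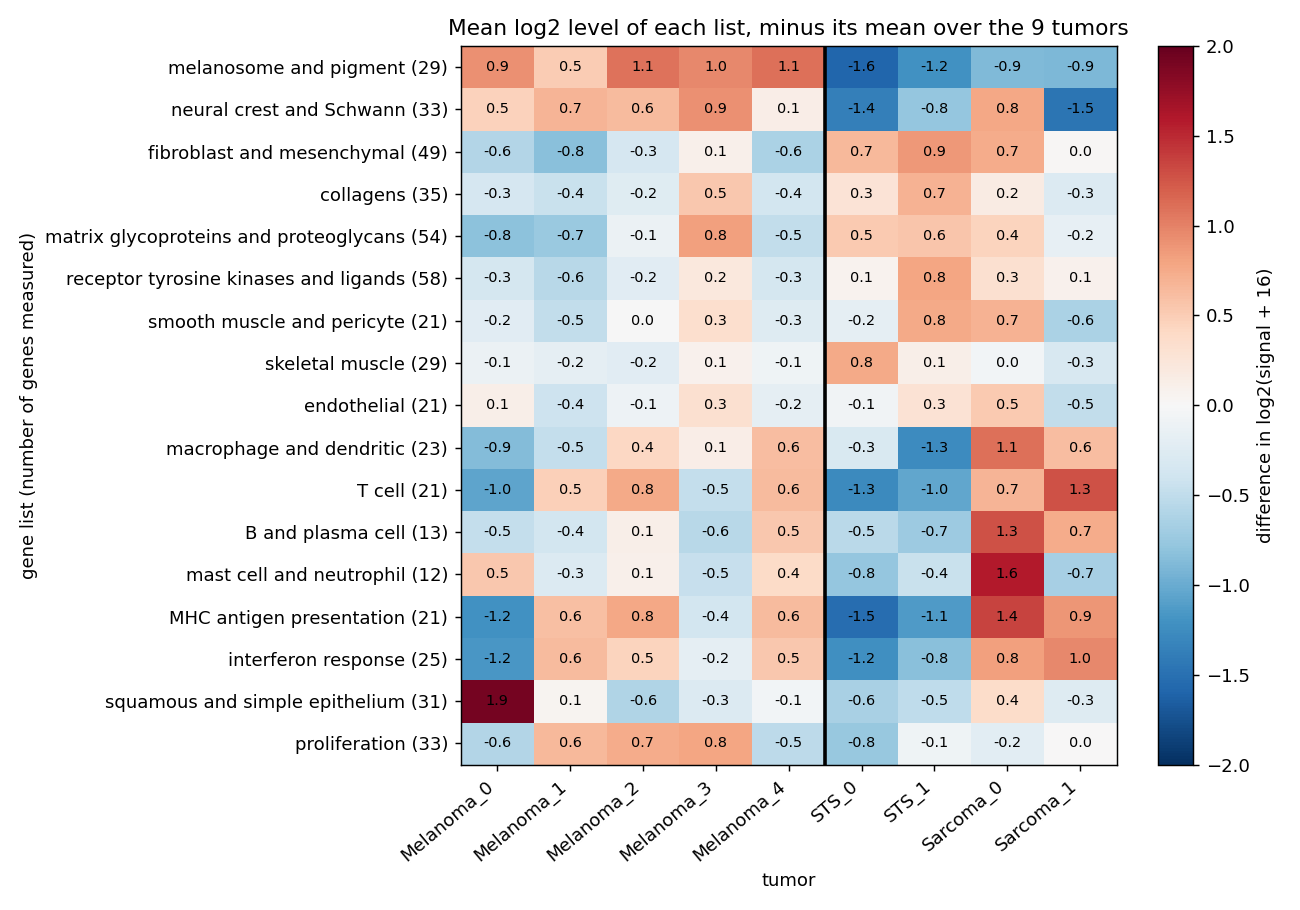
Rows are gene lists with the number of genes measured and columns are the 9 tumors, melanomas left of the black line. Each cell gives the tumor's mean log2(signal + 16) over the list minus the mean of the 9 tumors, from blue (below) to red (above). The pigment row separates the groups (8.80 to 9.39 against 6.70 to 7.41 before centring), and the neural crest row does not, with Sarcoma_0 at 8.21 and the melanomas at 7.57 to 8.36.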

How the data were processed

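RNA of 23 canine tumors was hybridised by the authors to 1-colour Affymetrix Canine Genome 2.0 arrays, 1 array per tumor, and 9 arrays enter the comparison. The deposited values are linear signal intensities that the authors made with the MAS5.0 algorithm, which subtracts mismatch probes and scales each array to 1 trimmed mean (500.1 here). Detection calls were not used here.

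From 42924 probesets (111 controls left out), 29254 with 1 gene symbol in the platform annotation were kept, 439 with several and 13231 with none were not used, and symbols were not updated. Probesets of a symbol were averaged as log2(signal + 16), giving 15115 genes with no filter on dim genes. Values near 4 are close to no signal and carry no order. Melanoma and sarcoma were compared with limma 3.58.1 in R 4.3.3 (lmFit, and eBayes with a variance trend) on the 9 arrays, with Benjamini-Hochberg adjustment over all genes. The script was tested on simulated data. The number of arrays limits the precision. The limma p-values set the difference in means against the spread between dogs within each group, moderated across genes.

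Groups were taken from the titles. The numbers in the titles only count tumors of a type from different dogs and pair nothing. Named were the 15 called genes with the largest difference in each direction, the called members of each of 31 gene lists, uncalled members of the pigment, neural crest and drug lists, and markers of other cell types, except 1 called gene that is not reported here. Other genes named in the text, including uncalled members of the receptor, matrix, growth and TGF beta lists, were chosen after their values were seen. The members and lists were chosen with earlier results of these data known. Alternatives changed the pseudocount, scaling, filter, choice of probeset, variance trend, tumors in the fit, a replicate block, an RNA integrity covariate, the sarcoma titles used and the tumor left out. No promoter or protein sequences were used here.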

Additional observations from a re-analysis of the deposited data

Results flagged for a closer look

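In 24 of 276 group values checked, 1 tumor stood apart from the rest of its group by Dixon's test, where chance gives about 1 in 20. Some of the genes checked were named after their values were seen, so that rate does not strictly apply to them. The values are log2(signal + 16), and their causes were not tested.

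Sarcoma_0 stood apart from the other sarcomas in 5 values. CDH19 was 12.49 there and 4.27 to 5.53 in the others, IGF2BP2 was 9.16 against 5.80 to 6.25, and DCT was 6.16 against 4.23 to 4.29. PID1 was lower there at 10.23, against 10.87 to 10.93. The mean of the mast cell and neutrophil genes was 7.79 against 5.44 to 5.76.

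Among the other sarcomas, STS_0 stood apart for PMEL at 5.78 (others 7.13 to 7.28), for SFN at 5.88 (4.23 to 4.50) and for the mean of the cell cycle and p53 regulators at 8.05 (8.52 to 8.61). STS_1 did so for BMPR1B at 7.30 (4.40 to 4.86) and for the log2 ratio of 3′ to 5′ control probesets at 4.19 (3.02 to 3.08). Sarcoma_1 was low for the mean of the matrix glycoproteins and proteoglycans at 8.74 (9.35 to 9.46).

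Melanoma_3 stood above the other melanomas for ABI3BP at 9.50 (others 6.14 to 6.54), for the collagen mean at 7.64 (6.67 to 6.87), for the WNT mean at 6.66 (6.12 to 6.19) and, at the dim end of the scale, for ESR1 at 4.95 (4.14 to 4.27) and OR8A1 at 4.58 (4.14 to 4.25). Melanoma_4 stood above them for PTGS2 at 13.56 (6.26 to 8.26), RAB27A at 14.91 (10.44 to 11.21) and NGFR at 8.74 (4.23 to 4.72). Melanoma_0 did so for the epithelial mean at 8.26 (5.73 to 6.39), AP3B1 at 11.69 (10.63 to 10.93) and IGF2 at 5.77 (4.16 to 4.62). Melanoma_1 was high for HDAC2 at 13.63 (12.61 to 12.88) and low for MET at 8.66 (10.34 to 11.02).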

How the results depend on the processing

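None of the 41 called genes that have a name changed direction under any setting run. For settings that only left out tumors this was fixed beforehand, because the groups did not overlap in these genes. As reported, 21 genes were called higher and 21 lower, with 7 pigment genes higher, 0 neural crest genes higher and 3 fibroblast genes lower. Leaving out 1 tumor at a time gave 8 to 47 genes higher and 3 to 28 lower. Among these were 5 to 7 pigment and 0 to 7 neural crest genes higher and 1 to 3 fibroblast genes lower. The 5 pigment genes were those called without STS_0. Of the 47 called higher without Sarcoma_0, 18 were among the 21. With 19 tumors in the fit there were 92 higher (0.609% of genes) and 86 lower (0.569%). Of these, 6 neural crest genes were higher and 8 fibroblast genes lower. Centring the arrays gave 32 higher. The tumors titled STS alone as the sarcoma arm gave 43 higher (0.284% of genes), 5 of them neural crest genes, and 20 lower (0.132%). Of the reported calls, 14 higher and 7 lower were among them. Those titled Sarcoma alone gave 5 higher (4 of them pigment genes), 0 lower and 0 fibroblast genes. By limma, 1349 genes had an unadjusted p under 0.05 with the tumors titled Sarcoma alone. The title number as a replicate block gave 3 higher, 0 lower, 1 pigment gene and 0 fibroblast genes (1155 genes at an unadjusted p under 0.05). Same-numbered tumors did not deviate together (r from -0.10 to 0.07 over genes), and they come from different dogs. The other settings (pseudocount, quantile scaling, filter, probeset choice, variance trend, integrity covariate) gave 17 to 29 higher and 15 to 23 lower. Not all were the same genes. Of the 21 reported in each direction, these settings kept 16 to 21 higher and 14 to 20 lower, fewest with the integrity covariate. Among uncalled genes, SNAI2 reversed to -0.17 with the tumors titled STS alone, and NGFR (-0.69 as reported) ran from -1.56 without Melanoma_4 to 0.28 without Sarcoma_0. The causes were not tested. Dim genes are limited by signal over background, since log2(signal + 16) compresses their differences.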
